A study of Mus musculus with 12 samples.

Results

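The genes described here encode 9 receptors and adhesion molecules that neutrophils use to mature in the marrow, leave it and enter tissue: the chemokine receptors Cxcr2, Cxcr4 and Ccr1, the granulocyte colony-stimulating factor (G-CSF) receptor Csf3r, the chemoattractant receptors Fpr1, Fpr2 and Ltb4r1, and the adhesion molecules Itgam and Selplg. They were taken by symbol from a deposited table of 21853 genes, and all 9 were found and passed the filter on low values that left 10994 genes for testing. The table holds RNA levels of whole bone marrow cells of B6 mice, in 4 groups of 3 libraries. Control mice were not irradiated. TBI mice received 5 Gy of gamma rays to the whole body at 0.66 Gy/min and then 100 µL of olive oil by gavage. TBI+DEIX mice received the same dose and DEIX by mouth at 25 mg per kg body weight once daily for 14 days, and DEIX mice received DEIX without irradiation. Marrow was taken on day 14. The series title names the compound as deinoxanthin, a carotenoid of radiation-resistant bacteria. No oil or gavage is stated for the control mice, so dosing itself and irradiation or DEIX cannot be told apart in comparisons with control. The labels do not say whether the 3 libraries of a group came from separate mice, so the p-values measure only the spread between these libraries.

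Neutrophils are made in the marrow from promyelocytes, and the receptors on their surface change as they mature. Cxcr4 binds the stromal chemokine Cxcl12 and holds young neutrophils in the marrow, while Cxcr2 binds chemokines such as Cxcl1 and Cxcl2 and drives mature cells into the blood. G-CSF acts through Csf3r and the transcription factor Stat3 to promote their production and release, and formyl peptide, leukotriene and complement receptors then guide them towards microbes and damaged tissue. Several of these genes are also used by other marrow cells: Cxcr4 by B cell precursors and stem cells, and Ccr1, Itgam and Selplg by monocytes.

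Levels are in FPKM, fragments per kilobase of transcript per unit of library size, which corrects for length, so levels of different genes can be compared. The genes lay between the 94.5th and the 98.9th percentile of mean FPKM among tested genes. Total depth is unknown, but low values step in whole reads, and the FPKM worth of 1 read relative to control replicate 1 ran from 0.894 to 1.90 in the 9 other libraries where it could be read, highest in TBI+DEIX replicate 3. The neutrophil genes S100a8, S100a9 and Ngp are listed at exactly 0 in some libraries, although neutrophils make much of their RNA, whereas none of the 9 receptor genes was at 0 anywhere. TBI+DEIX replicate 1 stood apart from the other libraries of its group for many genes. Values without it are given for the receptor genes where leaving it out changed a call or a direction, and for only some of the other genes. The within-group spread of the receptor genes (SD of log2(FPKM + 1), pooled as a root mean square) was widest in TBI+DEIX, at 0.610, beside 0.114 in control, 0.211 in DEIX and 0.249 in TBI.

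Both groups given DEIX had higher mean levels of 8 of the 9 receptor genes than both groups without it, with Cxcr4 as the exception. The share of all genes with this order of means was not counted. For Csf3r and Selplg the TBI+DEIX libraries overlapped with control. Against control, 6 of the 9 genes rose in TBI+DEIX (Cxcr2, Ccr1, Fpr1, Fpr2, Ltb4r1 and Itgam) and 3 rose in DEIX (Ccr1, Ltb4r1 and Itgam). Over the whole table, 16.9% of genes passed upward and 13.1% downward in TBI+DEIX against control, and 4.52% upward and 2.72% downward in DEIX against control. At an unadjusted p under 0.05 the counts were 6 and 6 of the 9, beside 41.6% and 24.7% of all genes. In TBI against control 0 of the 9 were called (limma, adjusted p under 0.05), with 2 at an unadjusted p under 0.05, Ltb4r1 and Itgam, both higher. Of all genes, 0.891% were called higher and 3.1% lower there. At an unadjusted p under 0.05, 18.1% of all genes passed there. Against TBI, Ccr1 alone rose in TBI+DEIX, where 4.69% of all genes were called higher and 3.41% lower, and 7 of the 9 had an unadjusted p under 0.05, beside 27.2% of all genes. Without TBI+DEIX replicate 1, 8 of the 9 were called against TBI and 8 against control, all but Cxcr4 in both. The share of all genes called higher was then 16.2% against TBI and 23.2% against control. With values rescaled to a common sum per library (TPM), the share of all called genes that were higher was 30.6% in place of 56.2% in TBI+DEIX against control, 34.4% in place of 57.9% in TBI+DEIX against TBI, 19.1% in place of 62.4% in DEIX against control and 9.49% in place of 22.3% in TBI against control.

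**Figure D1:**
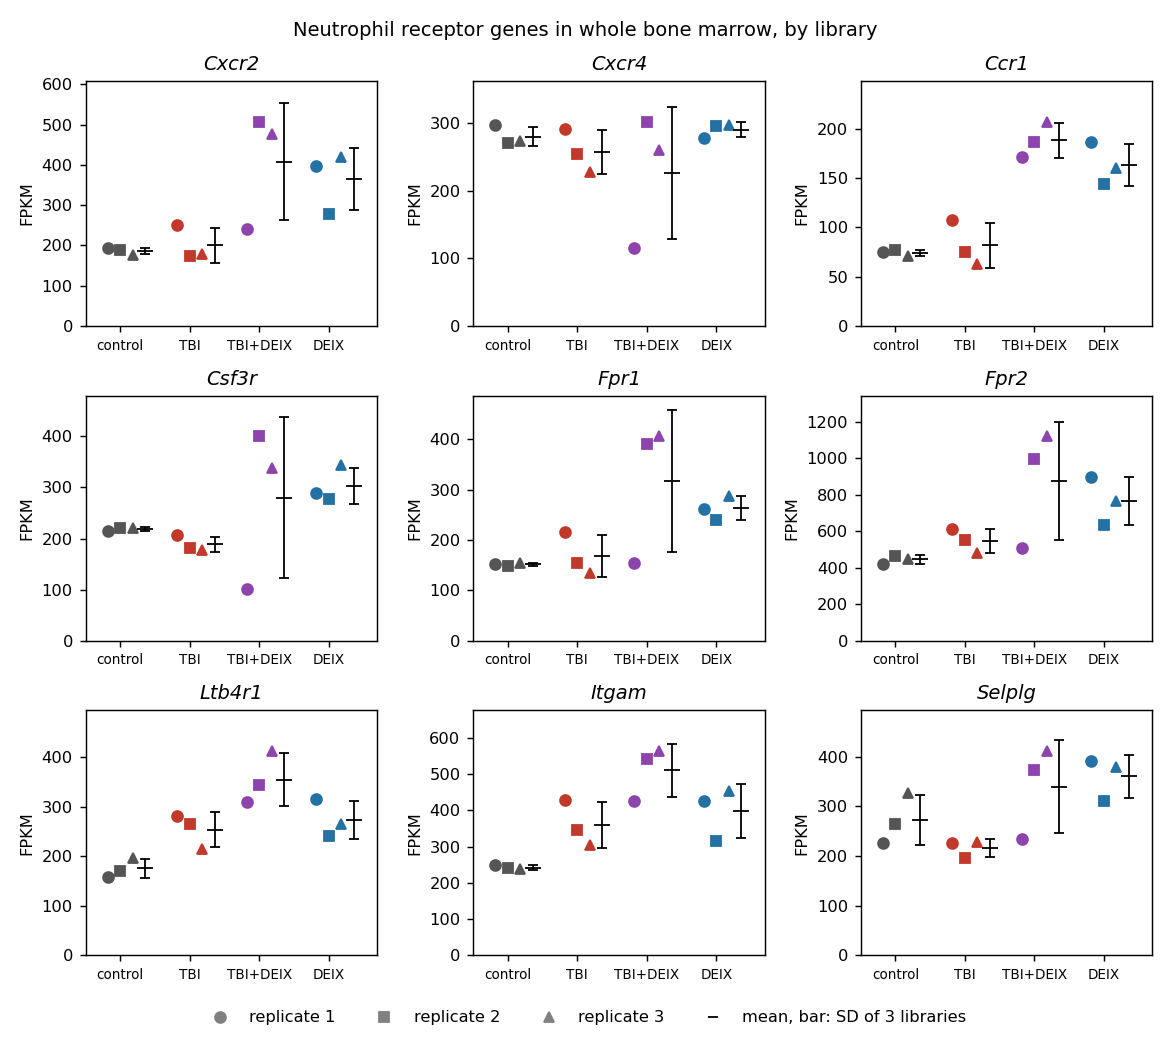
FPKM of each receptor gene (vertical axes, from 0) in each library, by group. Points are libraries, shaped by replicate number, and the bar beside them is the mean with the SD of 3 libraries. Ccr1 is above every control and TBI library in all 6 libraries given DEIX, and in TBI+DEIX replicate 1 (circle) Csf3r and Cxcr4 are lower than in all other libraries.

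Cxcr2, the receptor that draws mature neutrophils out of the marrow (ENSMUSG00000026180.8, GRCm38 chromosome 1, 74153989 to 74161246, plus strand), was at 193, 188 and 177 FPKM in control replicates 1 to 3 and at 251, 173 and 178 in TBI. In TBI+DEIX it was at 241, 507 and 476 FPKM, and in DEIX at 398, 278 and 420. All DEIX libraries lay above all TBI and control libraries, and TBI+DEIX replicate 1 lay among the TBI values. The mean was 186 ± 7.95 FPKM in the control libraries, 201 ± 43.3 in TBI, 365 ± 76.2 in DEIX and 408 ± 146 in TBI+DEIX (SD, n = 3). Cxcr2 rose in TBI+DEIX against control by 1.06 on the log2(FPKM + 1) scale (SE 0.27, adjusted p 0.0142), and by 1.40 without TBI+DEIX replicate 1. In TBI+DEIX against TBI the difference was 0.97 (95% interval 0.37 to 1.56, adjusted p 0.0518), and 1.31 without TBI+DEIX replicate 1 (adjusted p 0.00388). In DEIX against control it was 0.95 (0.35 to 1.54, adjusted p 0.0597). Neither passed with all libraries in the fit. TBI and control differed by 0.09, with an interval from -0.51 to 0.69.

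Cxcr4, the retention receptor (ENSMUSG00000045382.6, chromosome 1, 128588199 to 128592293, minus strand), lay between 227 and 302 FPKM in 11 of the 12 libraries. It was at 297, 270 and 273 FPKM in the control libraries, 292, 254 and 227 in TBI, 278, 296 and 297 in DEIX and 116, 302 and 261 in TBI+DEIX. The groups overlapped in every comparison, and only TBI+DEIX replicate 1 left the range of the others. Cxcr4 was called in none of the contrasts. Its differences were -0.13 in TBI against control (interval -0.75 to 0.49), 0.05 in DEIX against control (-0.56 to 0.67) and -0.29 in TBI+DEIX against TBI (-0.91 to 0.32). They were -0.42 in TBI+DEIX against control (-1.04 to 0.20) and -0.47 in TBI+DEIX against DEIX (-1.09 to 0.14). Without TBI+DEIX replicate 1 the difference was 0.13 from TBI and 0.00321 from control. Those intervals are wide enough to hold changes in either direction.

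The levels of both receptors can be set against each other within a library. The ratio of Cxcr2 to Cxcr4 in FPKM was 0.650, 0.697 and 0.649 in control and 0.860, 0.684 and 0.786 in TBI, so Cxcr4 was the higher of the pair in all 6 libraries without DEIX. In TBI+DEIX the ratio was 2.09, 1.68 and 1.83, with Cxcr2 the higher in all 3 libraries, and in DEIX it was 1.43, 0.940 and 1.41. On the log2(FPKM + 1) scale the mean difference was -0.59 ± 0.06 in control, -0.37 ± 0.17 in TBI, 0.31 ± 0.34 in DEIX and 0.89 ± 0.15 in TBI+DEIX (SD, n = 3). TBI+DEIX replicate 1, in which both genes were below the other libraries of that group, had the highest ratio of all. The TBI+DEIX libraries overlapped with no other group, and the 3 DEIX libraries lay above all control and TBI libraries. No test was made of this ratio, and the share of other gene pairs that separate the groups in this way was not counted. Cxcr4 is also used by B cell precursors and stem cells, whose part in the ratio was not tested.

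**Figure D2:**
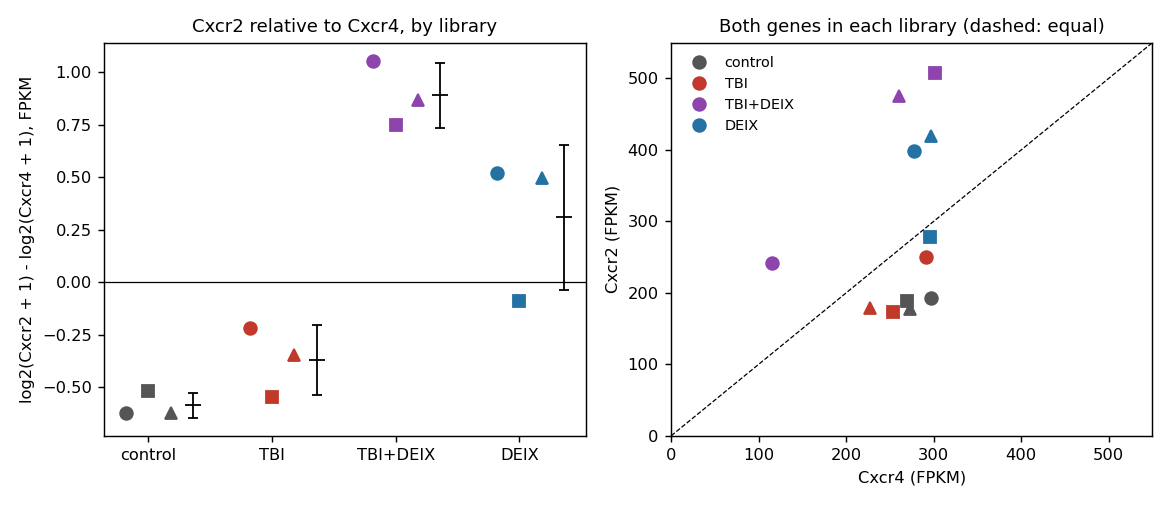
Left, the log2 difference between Cxcr2 and Cxcr4 in each library by group, with the mean and SD of 3 libraries; right, the FPKM of both genes in each library, with a dashed line where they are equal. Points are libraries, shaped by replicate number (circle 1, square 2, triangle 3). All 3 TBI+DEIX libraries and DEIX replicates 1 and 3 are above equality, and all control and TBI libraries and DEIX replicate 2 are below it.

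The stretch of 250 bases before the annotated start is shown for 5 of the genes. Cxcr2, Ccr1 and Itgam hold the letters marked in capitals, as do Csf3r, Fpr2 and Ltb4r1. Cxcr4 and Fpr1 do not hold them. Fpr1 rose in TBI+DEIX against control, while Cxcr4 and also Csf3r, which holds them, were called in none of the contrasts with all libraries in the fit. The sequences are from RefSeq on GRCm38.p6, 5′ to 3′ on the strand of the gene, and capitals mark the letters GAGGAA, the core of sites for the myeloid factor PU.1, or TTCCTC, the same on the other strand.
Cxcr2, chr1:74153744-74153993, plus strand: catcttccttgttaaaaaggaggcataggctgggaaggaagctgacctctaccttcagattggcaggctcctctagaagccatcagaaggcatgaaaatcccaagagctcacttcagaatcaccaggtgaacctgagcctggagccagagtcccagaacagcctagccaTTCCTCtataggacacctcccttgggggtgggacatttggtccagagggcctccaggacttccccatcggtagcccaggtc
Cxcr4, chr1:128592300-128592549, minus strand: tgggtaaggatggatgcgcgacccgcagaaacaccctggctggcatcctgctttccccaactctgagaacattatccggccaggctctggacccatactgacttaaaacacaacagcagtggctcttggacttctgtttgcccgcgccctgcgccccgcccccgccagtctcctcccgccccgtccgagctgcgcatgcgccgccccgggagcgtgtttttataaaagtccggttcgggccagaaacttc
Ccr1, chr9:123968693-123968942, minus strand: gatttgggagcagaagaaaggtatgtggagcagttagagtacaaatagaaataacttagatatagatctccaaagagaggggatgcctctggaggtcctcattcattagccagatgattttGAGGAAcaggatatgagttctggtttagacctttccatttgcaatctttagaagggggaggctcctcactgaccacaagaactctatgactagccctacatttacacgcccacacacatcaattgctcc
Itgam, chr7:128062390-128062639, plus strand: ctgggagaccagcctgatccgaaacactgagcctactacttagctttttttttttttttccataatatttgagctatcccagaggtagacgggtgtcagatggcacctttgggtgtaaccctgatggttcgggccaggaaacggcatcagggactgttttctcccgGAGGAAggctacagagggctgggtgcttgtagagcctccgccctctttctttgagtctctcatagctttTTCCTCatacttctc
Fpr1, chr17:17883940-17884189, minus strand: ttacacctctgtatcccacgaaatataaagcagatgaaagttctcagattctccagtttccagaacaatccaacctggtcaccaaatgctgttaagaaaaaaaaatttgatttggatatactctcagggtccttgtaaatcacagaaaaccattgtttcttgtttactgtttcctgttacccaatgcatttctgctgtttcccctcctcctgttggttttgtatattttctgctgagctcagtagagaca
Of the 9 genes, 8 had an entry in the promoter table and Selplg had none. GAGGAA was found on either strand in 6 of these 8, against 23.3% of 32851 such stretches of the same length, and the stretches without it were those of Cxcr4 and Fpr1. In Cxcr2 the letters lie from -81 to -76, counted back from the start, in Ccr1 from -129 to -124, and in Itgam at -84 to -79 and at -15 to -10. TTGCNNAA, a core of sites for C/EBP factors, was found on either strand in 0 of the 8 and in 9.56% of all stretches. A match is a description of the letters and not of binding.

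Ccr1, the receptor for Ccl3, Ccl5 and related chemokines (ENSMUSG00000025804.5, chromosome 9, 123962124 to 123968692, minus strand), was the only one of the 9 called against TBI with all libraries in the fit. It was at 74.9, 77.1 and 70.9 FPKM in control and 107, 75.2 and 62.6 in TBI, against 172, 187 and 207 in TBI+DEIX and 186, 144 and 160 in DEIX. The lowest library given DEIX was thus above the highest without it, as for 3.46% of all genes, and TBI+DEIX replicate 1 was at 87.2% of the mean of the other TBI+DEIX libraries. Ccr1 rose in DEIX against control by 1.12 (SE 0.18, adjusted p 0.00721), in TBI+DEIX against control by 1.33 (adjusted p 0.000512) and in TBI+DEIX against TBI by 1.23 (adjusted p 0.0108). The first and second of these passed under all 15 alternatives. The third lost its call without TBI replicate 3 (adjusted p 0.0648) and with only the compared groups in the fit (0.144), and was 1.29 without TBI+DEIX replicate 1. TBI and control differed by 0.10 (interval -0.29 to 0.48). In most libraries Ccr1 had the lowest level of the 9 genes, in 11 of 12.

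Csf3r, the G-CSF receptor (ENSMUSG00000028859.14, chromosome 4, 126024550 to 126044440, plus strand), was at 215, 221 and 221 FPKM in control and 206, 182 and 177 in TBI. It was at 289, 277 and 343 in DEIX and at 102, 400 and 339 in TBI+DEIX. All TBI libraries lay below and all DEIX libraries above the control libraries, while TBI+DEIX held both the lowest and the highest value. Libraries that do not overlap were common, at 16.3% of all genes lower in TBI and 23.4% higher in DEIX. Csf3r was called in none of the contrasts with all libraries in the fit. The differences were -0.22 in TBI against control (SE 0.39, adjusted p 0.816), 0.46 in DEIX against control (adjusted p 0.499) and 0.35 in TBI+DEIX against TBI (adjusted p 0.606). In TBI+DEIX against control the difference was 0.13 (adjusted p 0.822). Without TBI+DEIX replicate 1 Csf3r differed by 0.96 from TBI (adjusted p 0.00227) and by 0.75 from control (adjusted p 0.00104), and with only DEIX and control in the fit the adjusted p for DEIX was 0.0263.

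Stat3, which Csf3r activates, and Socs3 rose in all contrasts of DEIX with no DEIX. Socs3, the feedback inhibitor that Stat3 switches on, was at 4.65, 6.16 and 6.49 FPKM in control and 5.67, 4.75 and 4.02 in TBI, against 28.8, 18.1 and 19.8 in TBI+DEIX and 22.3, 14.8 and 12.9 in DEIX. It rose by 1.98 in TBI+DEIX against TBI (adjusted p 0.00411), by 1.36 in DEIX against control (0.00753) and by 1.76 in TBI+DEIX against control (0.00041). Stat3 was at 47.2 to 50.7 FPKM in control and at most 66.4 in TBI, against 96.5 to 107 in TBI+DEIX and 72.4 to 92.3 in DEIX. It rose in the same contrasts, by 0.85, 0.76 and 1.08 (adjusted p 0.0108, 0.00753 and 0.000288). For both genes every library given DEIX was above every one that was not, TBI+DEIX replicate 1 included, as for 3.46% of all genes. The call of Socs3 in TBI+DEIX against TBI was lost in 1 of 15 alternatives, the fit on these groups alone (adjusted p 0.144), and that of Stat3 in 3. The call of Stat3 in DEIX against control was lost in 1 of 15 alternatives, TPM scaling (adjusted p 0.116), and that of Socs3 in 0. Both genes also serve other cytokine receptors.

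The formyl peptide receptors Fpr1 and Fpr2 lie next to each other on chromosome 17, Fpr1 at 17876471 to 17883940 on the minus strand (ENSMUSG00000045551.7) and Fpr2 at 17887824 to 17893952 on the plus strand (ENSMUSG00000052270.7). Both bind formylated peptides of bacteria and mitochondria, and Fpr2 also lipid and peptide ligands such as annexin fragments. Fpr2 had the highest level of the 9 genes in all 12 libraries. It was at 419, 466 and 450 FPKM in the control libraries, 610, 553 and 480 in TBI, 896, 633 and 767 in DEIX and 506, 998 and 1119 in TBI+DEIX. Every TBI, TBI+DEIX and DEIX library lay above every control library, and TBI+DEIX replicate 1 lay within the TBI values. Fpr1 was at 153, 148 and 153 FPKM in the control libraries, 216, 155 and 134 in TBI, 262, 241 and 288 in DEIX and 154, 390 and 406 in TBI+DEIX. TBI overlapped with control, all DEIX libraries were above both groups, and TBI+DEIX replicate 1 was at the control level.

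Fpr1 rose in TBI+DEIX against control by 0.93 (SE 0.31, adjusted p 0.0441) and Fpr2 by 0.89 (SE 0.27, adjusted p 0.0275). Fpr1 lost this call in 9 of 15 alternatives (adjusted p up to 0.139) and Fpr2 in 6 (up to 0.0982), among them leaving out any 1 control library, TBI+DEIX replicate 2 or TBI+DEIX replicate 3. Without TBI+DEIX replicate 1 the values were 1.39 and 1.25. Against TBI the differences were 0.81 and 0.60 (adjusted p 0.126 and 0.175), and 1.27 and 0.95 without that library (0.00305 and 0.00534). In DEIX against control they were 0.79 and 0.77 (adjusted p 0.147 and 0.105). In TBI+DEIX against control both had libraries that did not overlap and were higher, as did 23.9% of all genes. Fpr2 overlaps the gene model of Fpr3 on its strand, but Fpr3 did not exceed 0.298 FPKM in any library.

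Ltb4r1, the high-affinity receptor for leukotriene B4 (ENSMUSG00000046908.5, chromosome 14, 55765962 to 55768494, plus strand), was at 159, 171 and 196 FPKM in the control libraries, 281, 265 and 215 in TBI, 315, 240 and 264 in DEIX and 308, 343 and 412 in TBI+DEIX. Every library of the 3 treated groups was above every control library, and every TBI+DEIX library was above every TBI library. Ltb4r1 rose in TBI+DEIX against control by 1.01 (SE 0.16, adjusted p 0.00136) and in DEIX against control by 0.63 (adjusted p 0.0398). In TBI against control the difference was 0.53 (interval 0.17 to 0.88, adjusted p 0.107), and in TBI+DEIX against TBI 0.48 (0.13 to 0.83, adjusted p 0.0853), or 0.58 without TBI+DEIX replicate 1 (adjusted p 0.0261). Libraries that did not overlap and were higher made up 22% of all genes in TBI against control and 14.5% in TBI+DEIX against TBI.

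Itgam, the alpha chain of the integrin Mac-1 (CD11b; ENSMUSG00000030786.18, chromosome 7, 128062640 to 128118491, plus strand), followed nearly the same order. It was at 249, 240 and 238 FPKM in the control libraries, 428, 345 and 304 in TBI, 426, 315 and 455 in DEIX and 426, 542 and 564 in TBI+DEIX. No treated library reached down to control, and TBI+DEIX replicate 1 was within the TBI values. Itgam rose in TBI+DEIX against control by 1.06 (SE 0.18, adjusted p 0.00185) and in DEIX against control by 0.70 (adjusted p 0.0423). In TBI against control it differed by 0.55 (interval 0.15 to 0.95, adjusted p 0.133), and in TBI+DEIX against TBI by 0.51 (0.11 to 0.91, adjusted p 0.0991), or 0.64 without TBI+DEIX replicate 1 (adjusted p 0.0238). With only TBI and control in the fit, Ltb4r1 and Itgam passed (adjusted p 0.0377 and 0.0339), and 5.13% of all genes were called higher, in place of 0.891%. Their rises in DEIX against control each lost the call in 9 of 15 alternatives, among them leaving out any 1 of the 6 libraries other than DEIX replicate 2. The predicted gene Gm49368, at 11.8 to 40.7 FPKM, overlaps Itgam on its strand, and how fragments were shared between them is not known.

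Selplg, the P-selectin ligand PSGL-1 on which leukocytes roll (ENSMUSG00000048163.13, chromosome 5, 113818536 to 113832644, minus strand), was at 225, 265 and 327 FPKM in the control libraries, 227, 195 and 227 in TBI, 391, 310 and 379 in DEIX and 234, 373 and 411 in TBI+DEIX. Control overlapped with each of the other groups, and all TBI+DEIX libraries were above all TBI libraries. It was called in none of the contrasts with all libraries in the fit. The differences were -0.32 in TBI against control (interval -0.79 to 0.15), 0.41 in DEIX against control (-0.06 to 0.88) and 0.61 in TBI+DEIX against TBI (0.14 to 1.08, adjusted p 0.0978). Selplg was called without TBI+DEIX replicate 1, with differences of 0.86 against TBI (adjusted p 0.00764) and 0.54 against control (adjusted p 0.0225).

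**Figure D3:**
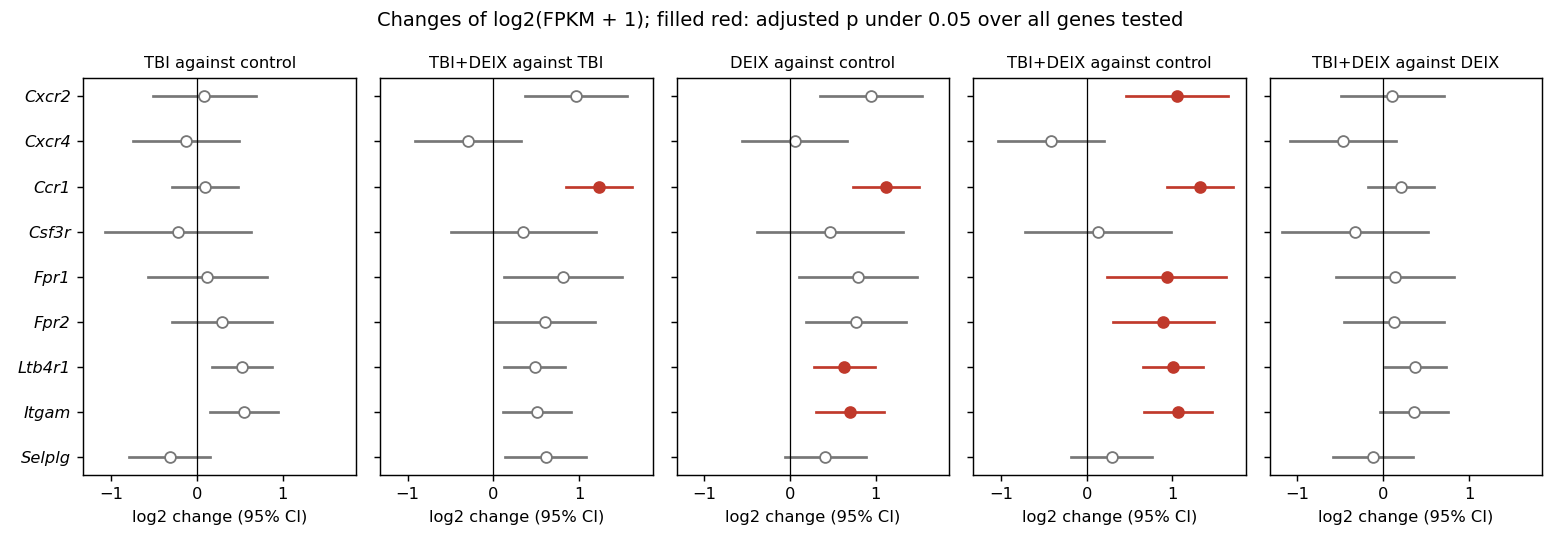
Log2 change of each receptor gene in 5 contrasts with its 95% confidence interval from the fit over all 12 libraries. Filled red points are called at an adjusted p under 0.05 over all 10994 genes. Called genes number 0, 1, 3, 6 and 0 from left to right, and the interval of Cxcr4 spans 0 in every panel. Of all genes, 0.891%, 4.69%, 4.52% and 16.9% were called higher in the same order, and 2.57% in either direction in the last panel.

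Between TBI+DEIX and DEIX, 0 of the 9 genes were called by limma and 1, Ltb4r1, had an unadjusted p under 0.05 (difference 0.37, adjusted p 0.28). Of all genes, 2.57% were called there in either direction and 16.2% had an unadjusted p under 0.05. The interaction, the DEIX effect in irradiated mice minus that in unirradiated mice, ran from -0.35 (Cxcr4) to 0.20 (Selplg), with 0 genes called and 0 at an unadjusted p under 0.05, beside 0.2% and 7.5% of all genes. For Ccr1 its interval was -0.44 to 0.65 and for Cxcr2 -0.82 to 0.86, so differences of such sizes between both DEIX effects remain possible. TBI+DEIX against TBI and TBI against control share the TBI libraries, and DEIX, TBI and TBI+DEIX against control share the control libraries. Over the 9 genes the median difference was 0.10 in TBI against control, 0.60 in TBI+DEIX against TBI, 0.70 in DEIX against control and 0.93 in TBI+DEIX against control, beside 0.05, 0.00, 0.02 and 0.02 over all genes tested.

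TBI+DEIX replicate 1 split the receptor genes. Relative to the mean of TBI+DEIX replicates 2 and 3, it held 87.2% of Ccr1, 81.7% of Ltb4r1 and 77% of Itgam, but 27.6% of Csf3r, 38.6% of Fpr1, 41.1% of Cxcr4, 47.8% of Fpr2, 49% of Cxcr2 and 59.6% of Selplg. Of the 12 markers of maturing neutrophils, 11 were lower in this library than that mean. Ly6g was at 7.54%, Retnlg at 13.5% and Lcn2 at 59.6%, the other 8 lower markers lay between 20.2% (Ceacam10) and 90.2% (Cd177), and Chil3 was at 147%. Of the 8 promyelocyte markers 5 were above the other libraries, with Mpo at 208%. The erythroid markers summed to 194 FPKM there against 1530 and 406 in the other TBI+DEIX libraries, and the B lineage markers to 8.42 against 227 and 93.2. The part of these differences in the receptor values was not tested.

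**Figure D4:**
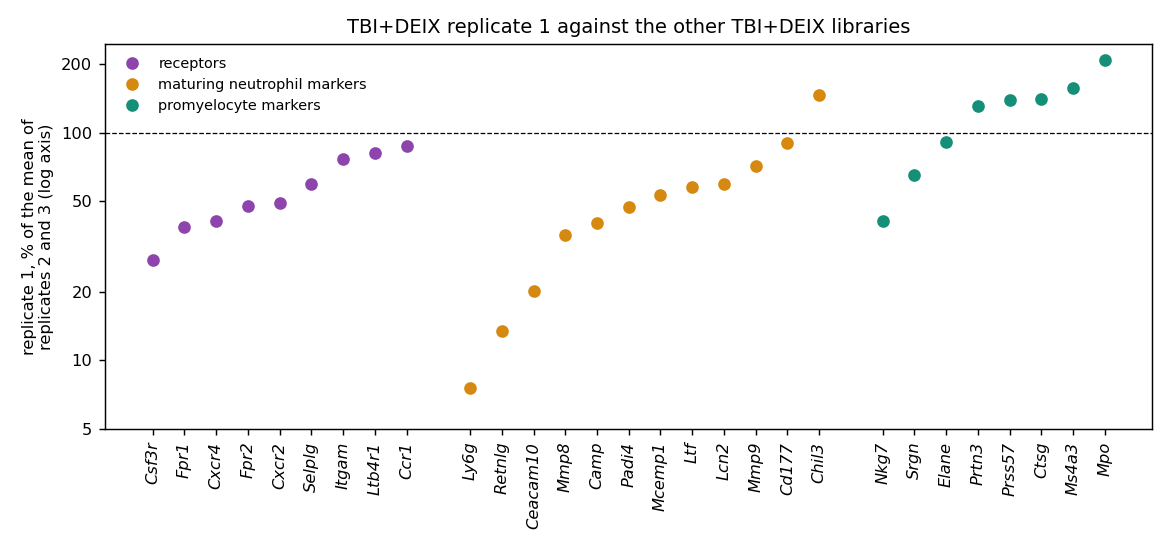
Level in TBI+DEIX replicate 1 as a percentage of the mean of replicates 2 and 3 (log axis), for the receptor genes and for markers of maturing neutrophils and promyelocytes, each ordered by value. The dashed line is equality of FPKM, not scaled to the sum of each library. Csf3r, Ly6g and Retnlg are at 27.6%, 7.54% and 13.5%, Ccr1 at 87.2% and Mpo at 208%.

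In RNA of whole marrow, fewer cells of a type and less RNA per cell cannot be told apart. Markers of maturing neutrophils, such as Lcn2 and Retnlg, were present in every library, and 0 of the 12 were at 0. Their summed level was 24390 to 33410 FPKM in the control libraries, 28960 to 35780 in TBI, 29640 to 42070 in DEIX and 26980 to 57350 in TBI+DEIX, or 55100 to 57350 without replicate 1. Of these 12 markers, 5 rose in TBI+DEIX and 1 in DEIX against control (16.9% and 4.52% of all genes), 0 rose in TBI+DEIX against TBI (4.69%) and 0 in TBI against control (0.891%), with medians of 0.85, 0.60, 0.42 and 0.41. Leaving out TBI+DEIX replicate 1, 9 of the 12 rose in TBI+DEIX against TBI and 11 against control (16.2% and 23.2% of all genes), with medians of 0.81 and 1.22. The 10 monocyte and macrophage markers summed to 717 to 762 FPKM in the control libraries, 458 to 742 in TBI, 1076 to 1198 in DEIX and 321 to 688 in TBI+DEIX. TBI and TBI+DEIX overlapped, and TBI+DEIX replicates 2 and 3 were at 505 and 688. The 10 B lineage markers summed to 510 to 629 FPKM in the control libraries, 33.5 to 416 in TBI, 69.8 to 107 in DEIX and 8.42 to 227 in TBI+DEIX. Erythroid markers summed to 3249 to 5193 FPKM in the control libraries, 1729 to 8111 in TBI, 1322 to 8032 in DEIX and 194 to 1530 in TBI+DEIX. The 7 stem and progenitor markers summed to 52.5 to 55.7 FPKM in the control libraries, 22.9 to 28.4 in TBI, 39.8 to 55.7 in DEIX and 14.7 to 28.6 in TBI+DEIX. For the 8 promyelocyte markers the sums were 3527 to 4829 FPKM in control, 2371 to 4363 in TBI, 3966 to 6032 in DEIX and 2620 to 3748 in TBI+DEIX. The part of cell composition in the receptor differences was not tested.

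Of 12 integrin and selectin partners of the receptor genes, 6 rose in TBI+DEIX against control (16.9% of all genes), 3 in DEIX against control (4.52%), 2 in TBI+DEIX against TBI (4.69%) and 1 in TBI against control (0.891%), and 0 fell. Itgb2, the beta chain that pairs with Itgam to form Mac-1, was at 316 ± 5.96 FPKM in the control libraries, 407 ± 52.9 in TBI, 469 ± 27.9 in DEIX and 609 ± 63.7 in TBI+DEIX (SD, n = 3). It rose by 0.94 in TBI+DEIX against control (adjusted p 0.000818), 0.58 against TBI (0.0324) and 0.57 in DEIX against control (0.0338). The first of these calls was lost in 0 of 15 alternatives, the second in 8 and the third in 7. Itgb2l, a neutrophil paralog of Itgb2, rose by 0.55 in TBI against control (adjusted p 0.0249), a call lost in 7 of 15 alternatives, and by 0.98 in TBI+DEIX against control, a call lost in 0. Without TBI+DEIX replicate 1, 9 of the 12 rose in TBI+DEIX against TBI, beside 16.2% of all genes. Means were not higher for all partners: Itga4, an alpha chain of VLA-4, was at 32.0 ± 1.74 FPKM in TBI+DEIX beside 43.3 ± 3.31 in TBI and 42.7 ± 8.95 in control (SD, n = 3). It was not called and was picked out after its values were seen.

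Of 13 tested genes that encode ligands or make them, 4 rose and 0 fell in TBI+DEIX against TBI (Selp, Alox5ap, Alox5 and Icam1), beside 4.69% and 3.41% of all genes. In DEIX against control 4 rose (Alox5ap, Selp, Ccl9 and Alox5) and 1 fell (Cxcl12), in TBI+DEIX against control 4 rose (Alox5ap, Anxa1, Selp and Alox5) and 2 fell (Ppbp and Ccl9), and in TBI against control 0 rose and 1 fell (Ppbp). Of all genes, 4.52% rose and 2.72% fell in DEIX against control, 16.9% and 13.1% in TBI+DEIX against control, and 0.891% and 3.1% in TBI against control. The calls of Ccl9 against control were lost in 8 of 15 alternatives in each contrast, that in TBI+DEIX among others without TBI+DEIX replicate 1 (adjusted p 0.0627). Ppbp, which encodes platelet basic protein, the precursor of a Cxcr2 ligand, was at 61.3, 29.8 and 28.9 FPKM in control, 5.06, 8.28 and 7.33 in TBI, 13.4, 14.1 and 35.9 in DEIX and 2.63, 6.10 and 4.74 in TBI+DEIX. No TBI or TBI+DEIX library reached a control library. Ppbp fell by 2.31 in TBI against control (adjusted p 0.00921) and by 2.87 in TBI+DEIX against control (adjusted p 0.000637), and both calls held in all 15 alternatives. The 6 megakaryocyte and platelet markers, of which Ppbp is 1, summed to 106 to 163 FPKM in control, 23.3 to 43.9 in TBI, 59.5 to 99.4 in DEIX and 21.6 to 38.7 in TBI+DEIX, and their part in this result was not tested. Alox5 and its partner Alox5ap make the precursor of leukotriene B4, the ligand of Ltb4r1. Alox5ap was at 345 ± 48.0 FPKM in the control libraries, 393 ± 70.0 in TBI, 631 ± 133 in DEIX and 776 ± 130 in TBI+DEIX (SD, n = 3), a rise of 0.98 in TBI+DEIX against TBI (adjusted p 0.0211) and of 0.86 in DEIX against control (0.0313). Against TBI the calls of Selp, Alox5ap, Alox5 and Icam1 were lost in 2, 4, 6 and 6 of 15 alternatives, and in DEIX against control those of Selp, Alox5ap and Alox5 in 5, 7 and 8. Anxa1, a source of Fpr2 ligands, rose by 1.15 in TBI+DEIX against control (adjusted p 0.00432). Camp, whose peptide is also an Fpr2 ligand, was not called in these contrasts. Cxcl12, the ligand of Cxcr4, was at 14.3, 11.8 and 9.38 FPKM in the control libraries, 17.3, 22.9 and 8.03 in TBI, 2.27, 5.16 and 3.34 in DEIX and 12.5, 15.6 and 10.3 in TBI+DEIX. The DEIX libraries were below all others, and Cxcl12 fell in DEIX against control by 1.51 on the log2 scale (adjusted p 0.0258), a call lost in 5 of 15 alternatives. Cxcl1 was listed at 0 in all 12 libraries, and Csf3, which encodes G-CSF, and Cxcl5 did not exceed 0.106 and 0.391 FPKM. Cxcl2, another Cxcr2 ligand, was too low to be tested, at 0.338, 0.189 and 0.347 FPKM in the control libraries, 0.381, 0.349 and 0.176 in TBI, 1.25, 0.793 and 0.801 in DEIX and 5.94, 0.935 and 0.979 in TBI+DEIX. Every library given DEIX lay above every one that was not, and TBI+DEIX replicate 1 was the highest.

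Of 24 genes that act below the receptors, 15 rose in TBI+DEIX against control (16.9% of all genes), 10 in TBI+DEIX against TBI (4.69%), 6 in DEIX against control (4.52%) and 0 in TBI against control (0.891%), and 0 fell in any of these. Their medians were 0.55, 0.41, 0.39 and 0.13. Besides Socs3 and Stat3, the genes called in TBI+DEIX against TBI included the Src family kinases Lyn and Fgr (0.73 and 0.71), the kinase Syk (0.45), the arrestin Arrb2, which takes chemokine receptors off the surface (0.70), the phosphoinositide 3-kinase subunit Pik3r5 (0.61), and Grk6 and Rgs19, which dampen G-protein receptors (0.60 and 0.54). Arrb2, Fgr, Lyn and Pik3r5 also rose in DEIX against control, by 0.56, 0.71, 0.56 and 0.68. The most abundant of the list, Gnai2, the inhibitory G protein that chemokine receptors use, was at 551 ± 64.9 FPKM in control and 789 ± 209 in TBI+DEIX and was not called, but without TBI+DEIX replicate 1 it rose by 0.72 against control (adjusted p 0.00284) and by 0.58 against TBI (0.0175). The count in TBI+DEIX against TBI was 20 of 24 without TBI+DEIX replicate 1, 1 without TBI replicate 3 and 0 with only those groups in the fit. Over all genes the share called higher moved the same way, at 16.2%, 0.0455% and 0% in these settings. Syk, Grk6 and Rgs19 lost the call in 8, 9 and 9 of 15 alternatives and Lyn, Fgr, Arrb2 and Pik3r5 in 4 to 5, and Grk6 differed by 0.38 without TBI+DEIX replicate 1. In DEIX against control the 4 named genes lost the call in 5 to 7 alternatives.

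Of 15 tested genes for other chemoattractant and neutrophil receptors, 8 rose in TBI+DEIX against control (16.9% of all genes), 4 in TBI+DEIX against TBI (4.69%), 4 in DEIX against control (4.52%) and 0 in TBI against control (0.891%), and 0 fell. Il1r2, the decoy receptor for interleukin 1, rose by 2.15 in TBI+DEIX against TBI (adjusted p 0.0146) and by 1.76 in DEIX against control (0.0168), from 34.7 ± 1.66 FPKM in control and 38.0 ± 8.56 in TBI to 121 ± 22.4 in DEIX and 195 ± 133 in TBI+DEIX (SD, n = 3). Its 3 TBI+DEIX libraries were uneven, with 349 FPKM in replicate 1 and 118 in both others, and without replicate 1 the rise against TBI was 1.63 (adjusted p 0.00181). Csf2rb, the shared chain of the GM-CSF receptor, rose by 1.19 and 1.07 (adjusted p 0.0177 and 0.019), calls lost in 4 and 6 of 15 alternatives, and those of Il1r2 were lost in 2 and 4. C5ar1, the receptor for complement C5a, rose by 1.00 in TBI+DEIX against control (adjusted p 0.0175, lost in 4 alternatives), or by 1.40 without TBI+DEIX replicate 1, at 121 to 279 FPKM in that group beside 103 to 108 in control.

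Of 11 tested transcription factors of maturation, 3 rose and 1 fell in TBI+DEIX against TBI (4.69% of all genes higher and 3.41% lower), 3 rose and 1 fell in TBI+DEIX against control (16.9% and 13.1%), 0 were called in DEIX against control (4.52% and 2.72%) and 1 fell in TBI against control (3.1%). Junb, Klf2 and Spi1, which encodes PU.1, rose in TBI+DEIX against TBI by 0.93, 0.96 and 0.68 (adjusted p 0.0198, 0.0108 and 0.0386), calls lost in 4, 3 and 8 of 15 alternatives. In TBI+DEIX against control Spi1, Cebpb and Junb rose by 0.71, 0.60 and 0.53 (adjusted p 0.0109, 0.0319 and 0.0461), calls lost in 0, 6 and 8 alternatives, that of Cebpb among others without TBI+DEIX replicate 1 (adjusted p 0.071). Klf2 was also the factor that fell in TBI against control, by 0.59 (adjusted p 0.0344, lost in 10 alternatives), and in TBI+DEIX against control it was not called (0.37, adjusted p 0.0585). It was at 70.4, 74.3 and 96.5 FPKM in control, 56.6, 50.7 and 50.9 in TBI, 76.4, 96.3 and 78.7 in DEIX and 110, 99.7 and 99.3 in TBI+DEIX. Irf8, which directs precursors towards monocytes, fell by 1.03 in TBI+DEIX against TBI (adjusted p 0.024, lost in 4 alternatives), or by 0.73 without TBI+DEIX replicate 1. Against control it fell in TBI+DEIX by 1.92 (adjusted p 0.000316, lost in 0 of 15 alternatives). It was at 94.2 to 96.6 FPKM in the control libraries, 44.4 to 58.5 in TBI, 69.8 to 82.7 in DEIX and 15.8 to 35.6 in TBI+DEIX. Cebpe, which neutrophil precursors need to form secondary granules, had means of 136 ± 24.3 FPKM in the control libraries, 154 ± 47.7 in DEIX, 182 ± 6.38 in TBI and 195 ± 90.2 in TBI+DEIX (SD, n = 3) and was not called. It was called against control without TBI+DEIX replicate 1 (0.85, adjusted p 0.0166), but not against TBI (0.42, adjusted p 0.206). The counts of these lists in DEIX against control moved with several settings. Under TPM scaling 0 of the ligand genes, 0 of the integrin and selectin partners, 1 of the other receptors and 1 of the signalling genes were called higher, beside 0.491% of all genes in place of 4.52%. The replicate block gave 1, 1, 3 and 5 (3.22% of all genes). Leaving out 1 library gave 0 to 3, 0 to 3, 0 to 2 and 2 to 10 (0.6% to 5.48%), and the fit on the compared groups alone gave 5, 8, 9 and 15 (10.9%). With only the compared groups in the fit, 0 genes of all 5 lists were called in TBI+DEIX against TBI, and under TPM scaling 2 of the ligand genes, 1 of the other receptors and 1 of the signalling genes were called higher there, beside 0.491% of all genes in place of 4.69%. Against TBI, 7 of 13 ligand genes, 12 of 15 other receptors and 4 of 11 transcription factors were called higher without TBI+DEIX replicate 1, beside 16.2% of all genes. In TBI+DEIX against control, TPM scaling gave 2 of 12 integrin and selectin partners called higher and 1 called lower, and 8 of 24 signalling genes, 6 of 15 other receptors, 4 of 13 ligand genes and 1 of 11 transcription factors called higher, beside 4.97% of all genes called higher.

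**Figure D5:**
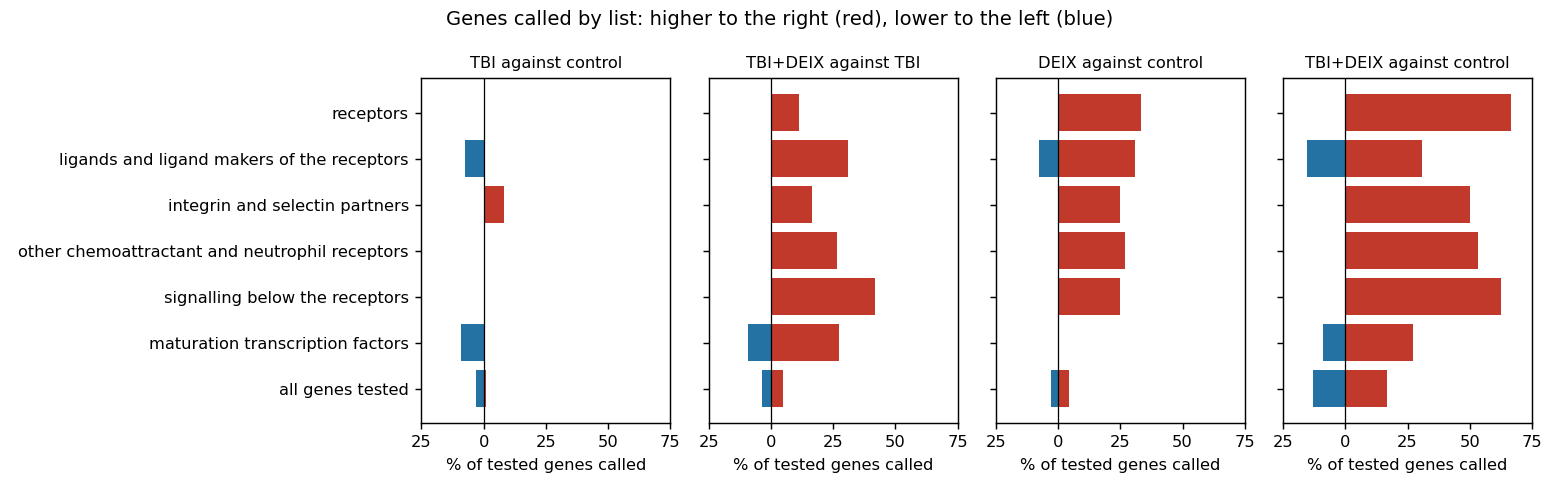
Share of tested genes called higher (red, right) and lower (blue, left) in each list, for 4 contrasts, with all 10994 genes tested in the bottom row. In TBI+DEIX against control, 6 of 9 receptor genes and 15 of 24 signalling genes were called higher, beside 16.9% of all genes.

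Over the 36 pairs, Pearson's r of log2(FPKM + 1) over 12 libraries had a median of 0.776 and ran from -0.187 (Cxcr4 with Ltb4r1) to 0.961 (Cxcr2 with Fpr1). Ltb4r1 and Itgam had an r of 0.948 with each other and 0.286 and 0.374 with Csf3r, while Ccr1 had 0.425 with Csf3r. Leaving out TBI+DEIX replicate 1, these values were 0.947, 0.628, 0.704 and 0.906. Selplg had 0.479 with both Ltb4r1 and Itgam over 12 libraries, and 0.562 and 0.546 without TBI+DEIX replicate 1. Cxcr4 had its highest r, 0.793, with Csf3r, and 0.552 without TBI+DEIX replicate 1. Without TBI+DEIX replicate 1 the median was 0.835, the lowest r was 0.044 (Cxcr4 with Ltb4r1), and Csf3r reached 0.940 with Cxcr2. The libraries share their group differences and their scaling, so these values only describe them. Of 8174 other genes with a mean of at least 5 FPKM, those most like each receptor gene by the same measure were Wipf1, Clec4e and Phospho1 for Cxcr2 (r 0.983 to 0.988), Glipr1, Il15 and Psap for Cxcr4 (0.965 to 0.969, with Spearman's rho of only 0.664 to 0.748), Fbxl5, Lilr4b and Ggt5 for Ccr1 (0.985 to 0.991), Slc2a6, Klra2 and Clec4d for Csf3r (0.976 to 0.977), and Ncf4, Anxa1 and Slc4a2 for Ltb4r1 (0.981 to 0.985). For Itgam they were Slc35e1, Aldh3a2 and Ncf1 (0.986 to 0.990), for Fpr2 Rab8a, Ostf1 and C5ar1 (0.983 to 0.989), for Fpr1 Grina, Zbtb42 and Rnf13 (0.981 to 0.986), and for Selplg Nrros, Saraf and Slc12a9 (0.927 to 0.928).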

How the data were processed

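RNA of whole bone marrow cells was sequenced in 12 libraries from a directional MGI messenger RNA kit, per the labels' protocols. The submitters' processing notes name STAR 2.6, Cufflinks 2.2.1 and the mm10 build; the annotation is not given in the sources used here. The authors deposited FPKM per gene and library; no counts were used. All 21853 versioned identifiers matched GENCODE vM21 (GRCm38), which gave symbols and coordinates. Values were tested as log2(FPKM + 1), which understates changes of low genes. Genes with at least 1 FPKM in at least 3 libraries (10994) entered 1 linear model with a mean for each of 4 groups over 12 libraries, using limma 3.58.1 under R 4.3.3 and its trended empirical Bayes step. Genes called had a Benjamini-Hochberg adjusted p under 0.05 over all genes tested, and p-values are two-sided. The fit was tested on simulated data. The 9 members, the gene lists and the motifs were chosen with earlier results of these data known. Named from each pathway list were its 3 most abundant genes and up to 5 called genes a contrast, from marker lists the 2 most abundant, and for likeness 3 genes a member; Ly6g, Cd177, Ceacam10, Chil3 and further signalling genes were added after their values were seen, and some genes that the rule names are not reported here. Alternatives, 15 for each contrast between groups, changed pseudocount, filter, samples, scaling, trend or replicate block, or left out 1 library.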

Additional observations from a re-analysis of the deposited data

How the results depend on the processing

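The number of receptor genes called depended on the fit. In DEIX against control 3 of the 9 were called. That count was 7 with only the compared groups in the fit (10.9% of all genes called higher, in place of 4.52%), 5 under TPM scaling without S100a8, S100a9 and Ngp (1.82%; added after seeing the data), and 1 without the filter (2.51%), under TPM scaling (0.491%), with equal library medians (3.49%) or with the replicate block (3.22%). Leaving out 1 library gave 1 to 4 (0.6% to 5.48%). For TBI+DEIX against TBI, with 1 called, it was 0 with the compared groups only (0% of all genes called higher, in place of 4.69%), 2 with a mean of at least 5 FPKM (5.88%), with equal medians (5.16%) or under TPM scaling without those 3 genes (1.33%), and 0 without TBI replicate 3 (0.0455%) to 8 without TBI+DEIX replicate 1 (16.2%). In TBI against control, with 0 called, it was 2 with the compared groups only (5.13%) and 1 under TPM scaling without those 3 genes (0.446%), in place of 0.891%. For TBI+DEIX against control, with 6 called, it ran from 4 to 8, and the share of all genes from 4.97% to 23.2%. The interaction and TBI+DEIX against DEIX gave 0 throughout. The cause of these changes was not tested.

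Direction changed only for differences that were not called. Leaving out 1 library, TBI against control ran from -0.08077 to 0.184 for Cxcr2, -0.11 to 0.27 for Ccr1 and -0.07222 to 0.269 for Fpr1, in each case below 0 without TBI replicate 1. TBI+DEIX against TBI ran from -0.56 to 0.13 for Cxcr4 and -0.0162 to 0.965 for Csf3r. TBI+DEIX against control ran from -0.69 to 0.00321 for Cxcr4 and -0.23 to 0.75 for Csf3r. TBI+DEIX against DEIX ran from -0.08588 to 0.449 for Cxcr2, -0.70 to 0.29 for Csf3r, -0.10 to 0.60 for Fpr1, -0.09205 to 0.479 for Fpr2 and -0.28 to 0.13 for Selplg. The interaction ran from -0.17 to 0.36 for Cxcr2, -0.61 to 0.0785 for Cxcr4, -0.063 to 0.32 for Ccr1, -0.48 to 0.50 for Csf3r, -0.22 to 0.47 for Fpr1 and -0.39 to 0.19 for Fpr2. Under TPM scaling Cxcr4 in DEIX against control was -0.10, and without the 3 genes the interaction was -0.05003 for Cxcr2 and -0.05053 for Fpr1.

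Over all genes, the number called in TBI against control was 439, and 675 without the filter, 134 with a mean of at least 5 FPKM, 1417 with the compared groups only, 253 under TPM scaling, 291 under TPM scaling without the 3 genes and 153 to 259 with 1 library left out. For TBI+DEIX against TBI it was 891, and 0 with the compared groups only, 157 and 488 under the TPM scalings, 474 with the replicate block and 5 to 2836 with 1 library left out. In DEIX against control it was 796, and 2057, 282 and 408 in those settings other than the block, and 146 to 938. The number in TBI+DEIX against control was 3299, and 2181 with the compared groups only, 1785 under TPM scaling and 2004 to 4232. The number in TBI+DEIX against DEIX was 283, and 104 with a mean of at least 5 FPKM, 0 with the compared groups only, 125 under TPM scaling, 180 with the block and 50 to 927. For the interaction it was 22, and 11 with a pseudocount of 0.1, 37 without the filter, 7 with a mean of at least 5 FPKM and 4 to 331. TPM scaling without the 3 genes left 29.9%, 49.0% and 38.5% of called genes higher in TBI+DEIX against TBI, DEIX against control and TBI+DEIX against control.

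The labels do not say whether the replicate numbers pair the libraries. Deviations of same-numbered libraries correlated at -0.447 to 0.242 (median -0.07, 18 pairs), and 2 of 12 libraries correlated best with their own number. With few libraries in each group, these values cannot decide whether they were paired. With the replicate block, 5 receptor genes were called in TBI+DEIX against control and 1 in DEIX against control, where 15.4% and 3.22% of all genes were called higher. Depth in reads is unknown, so no counting error could be given.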

Other observations

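Cxcr1, the sister receptor of Cxcr2, was low in every library and was picked out here after its values were seen. It was at 1.64, 1.41 and 1.82 FPKM in control and 2.99, 1.88 and 1.88 in TBI. In DEIX it was at 12.8, 5.44 and 12.6 FPKM and in TBI+DEIX at 0.231, 9.38 and 8.56. All DEIX libraries were above control and TBI, and TBI+DEIX replicate 1 had the lowest level of all 12. The difference was 2.03 in DEIX against control (limma adjusted p 0.0845) and 0.63 in TBI+DEIX against TBI (adjusted p 0.58), or 1.63 without TBI+DEIX replicate 1 (adjusted p 0.0062). Selp, the P-selectin to which Selplg binds, was at 3.49, 3.43 and 3.46 FPKM in TBI+DEIX beside 1.12 to 1.26 in TBI, and rose by 1.01 on the log2(FPKM + 1) scale (limma adjusted p 0.0114). Itgax, which encodes the integrin alpha chain CD11c, was at 6.09 to 7.14 FPKM in control and at 1.80 to 5.12 in TBI+DEIX, a difference of -0.88 (limma adjusted p 0.0565). The lowest value was that of TBI+DEIX replicate 1, and without it the difference was -0.60 (adjusted p 0.142).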
